A study of Saccharomyces cerevisiae with 12 samples.

Results

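The genes described here encode the proteins of the cytosolic ribosome of *Saccharomyces cerevisiae*, measured with and without sulfur dioxide (SO2) in wild-type cells and in cells that lack the transcription factor gene *COM2*. They were chosen by name. A gene was included when its symbol was RPL or RPS with a number and, where there is one, the letter A or B of the copy, or when it was one of the 5 stalk genes *RPP0*, *RPP1A*, *RPP1B*, *RPP2A* and *RPP2B*. Where a gene had more than 1 probe set, the brightest was used. This gave 127 genes out of 5667 features tested, 75 of the large (60S) subunit with its stalk and 52 of the small (40S) subunit. No filter on low values was applied, and all 127 were tested. RefSeq lists 137 genes under these names. The other 10 were not analysed here.

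The study asked what Com2 contributes to the transcriptional response of yeast to SO2, a preservative used in winemaking. There were 4 groups of 3 biological replicates, each hybridized to an Affymetrix Yeast Genome 2.0 array: *com2*Δ cells with 0.5 mM SO2, *com2*Δ cells without SO2 (control), wild-type cells with 0.5 mM SO2, and wild-type cells without SO2 (control). All cultures were kept for 60 min in MMB medium at pH 3.5 after transfer of mid-exponential cells to fresh medium. The wild type was BY4741, a laboratory haploid (mating type a) with deletions in *HIS3*, *LEU2*, *MET15* and *URA3*. The mutant is the deletion strain of the Euroscarf collection in the same background, so all 4 groups share these auxotrophies. The titles of the samples give the *com2* deletion, whereas their strain field names BY4741 for every sample. Only 1 mutant strain was used.

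*COM2* had intensities of 9.4 to 20.3 on the 6 *com2*Δ arrays and of 2368 to 3680 on the 6 wild-type arrays. Of the deleted markers, *MET17* (*MET15*) lay between 5.4 and 17.8, *URA3* between 8.9 and 39.4 and *LEU2* between 71.6 and 152 on the 12 arrays. The probe set of *HIS3*, which is only partly deleted in BY4741, read 5517 to 20483. The median intensity over all features was 1840, 1807 and 1868 on the wild-type arrays with SO2 and 1673 to 1749 on the other arrays. No further scaling was applied in the main fit. Median centring and quantile normalization were run as alternatives, and their values are given below. Over all features the third wild-type control array differed from its replicates by a median absolute log2 difference of 0.27 and 0.233, against 0.096 between these. Over the ribosomal protein genes the same differences were 0.052 and 0.049, against 0.017. Precision is limited by having 3 arrays in a group. An array compares shares of the RNA loaded, so fewer ribosomal protein transcripts per cell and a change in the other RNA cannot be told apart.

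The yeast ribosome joins a small subunit, which reads the mRNA, to a large subunit, which forms the peptide bonds. Most of its proteins are encoded by a pair of paralogous genes, A and B, left by an ancient duplication of the genome. Their transcripts are among the most abundant of a growing yeast cell and carry a large share of all RNA polymerase II initiation. They are transcribed together through Rap1, Fhl1, Ifh1 and Sfp1, under the nutrient-sensing kinases TORC1 and protein kinase A. A joint drop of these transcripts is part of the general response of yeast to many stresses.

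Ribosomal protein transcripts were lower in wild-type cells with SO2 than in wild-type control cells, whereas they were at nearly the same level with and without SO2 in *com2*Δ cells. On each array, the 127 genes were set against their own mean on the wild-type control arrays. The median of these log2 differences was 0.01, −0.01 and 0.03 on the *com2*Δ arrays with SO2 and 0.00, 0.00 and 0.01 on the *com2*Δ control arrays. It was −0.31, −0.28 and −0.30 on the wild-type arrays with SO2 and 0.00, 0.01 and −0.01 on the wild-type control arrays. The wild-type arrays with SO2 were the low ones, and the other 9 arrays lay within 0.03 of 0. Over all 5667 features the same medians were −0.03 to 0.02 on the 12 arrays.

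**Figure D1:**
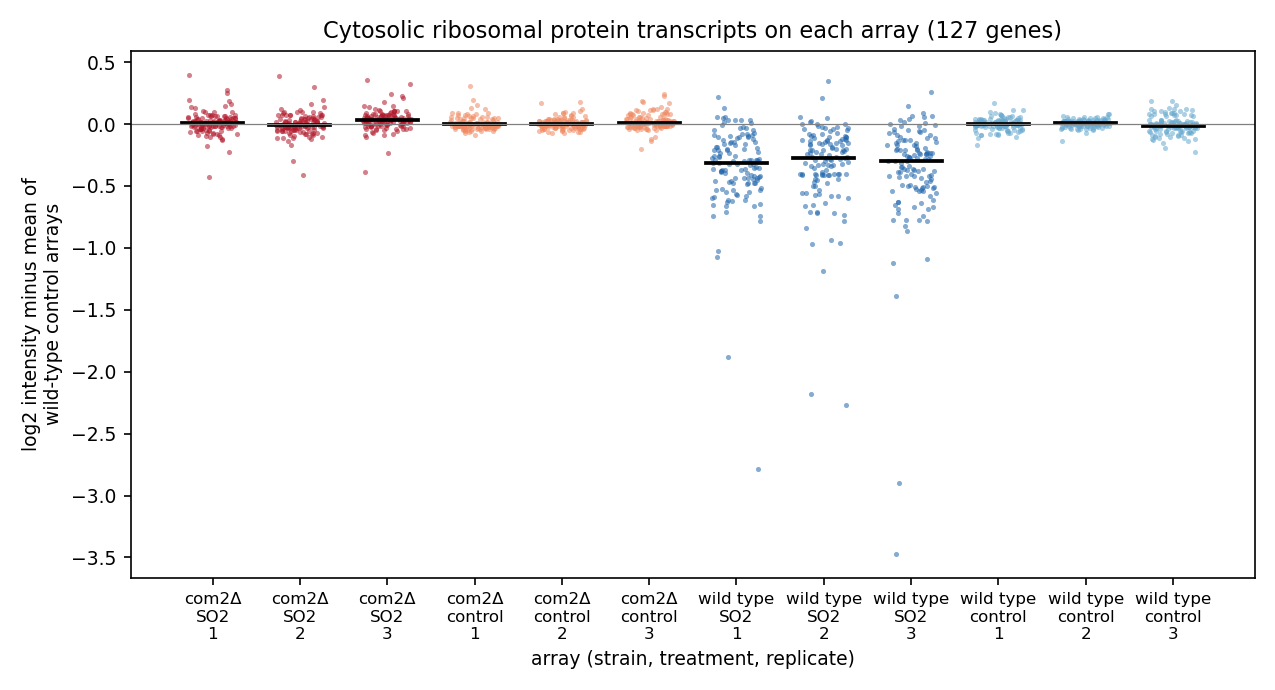
Each point is 1 of the 127 ribosomal protein genes on 1 array, as its log2 intensity minus its mean log2 intensity on the 3 wild-type control arrays; the arrays are ordered by strain and treatment, and black bars mark the median of an array. The medians of the wild-type arrays with SO2 lie at −0.31, −0.28 and −0.30, and those of the other 9 arrays between −0.01 and 0.03.

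Differences were tested with limma over all features, and p-values were adjusted over all of them by the method of Benjamini and Hochberg. In wild-type cells with SO2, 87 of the 127 transcripts fell (adjusted p under 0.05, 68.5% of the genes) and 1, *RPL4A*, rose. Over all features tested, 29.6% fell and 30.0% rose by the same rule. The median log2 fold change of the 127 genes was −0.31, with quartiles of −0.46 and −0.16, beside 0.00 over all features. The 3 wild-type arrays with SO2 lay below the 3 wild-type control arrays in 106 genes and above them in 1, beside 31.1% and 31.7% of all features. Most changes were small. By the rule of the study's methods, which sets a 2-fold limit beside a p-value under 0.05 and an FDR (false discovery rate) under 10%, 4 of the 127 genes were lower and none was higher, beside 8.36% and 10.5% of all features. The share of ribosomal protein genes called by the 2-fold rule, 3.15%, was thus below that of all features, while the share called with no fold limit was above it. The median standard error was 0.08 for these genes and 0.14 for all features. Most ribosomal protein probe sets were also bright, and changes spread less in bright features, as described below. The part of brightness in these shares was not tested.

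Genes of both subunits were among those that fell. Of the 75 genes of the large subunit, 53 fell, with a median log2 fold change of −0.30. Of the 52 genes of the small subunit 34 fell, with a median of −0.32. Over all features, 29.6% fell on the full set of arrays. When the third wild-type control array was left out, 82 genes fell and 1 rose, and the median was −0.30.

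In *com2*Δ cells, 1 of the 127 transcripts, *RPS28B*, fell with SO2 and none rose (adjusted p under 0.05), and none passed the 2-fold rule. Over all features, 14.9% fell and 14.0% rose in these cells, and 5.88% passed the 2-fold rule in either direction. At an unadjusted p under 0.05 the counts of limma were the same, 1 gene lower and 0 higher. A fit of limma with array weights, whose estimates did not settle, called 5 lower and 31 higher. The median log2 fold change of the ribosomal protein genes was 0.00, and 119 of the 127 values lay within 0.1 of 0, at a median standard error of 0.08. The arrays of the 2 conditions did not overlap in 14 genes that were lower and 9 that were higher, fewer than the 23.1% and 24.1% seen over all features. For the 87 genes that fell in the wild type, the median change in *com2*Δ cells was 0.00 on the log2 scale, with a range of −0.42 to 0.18.

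**Figure D2:**
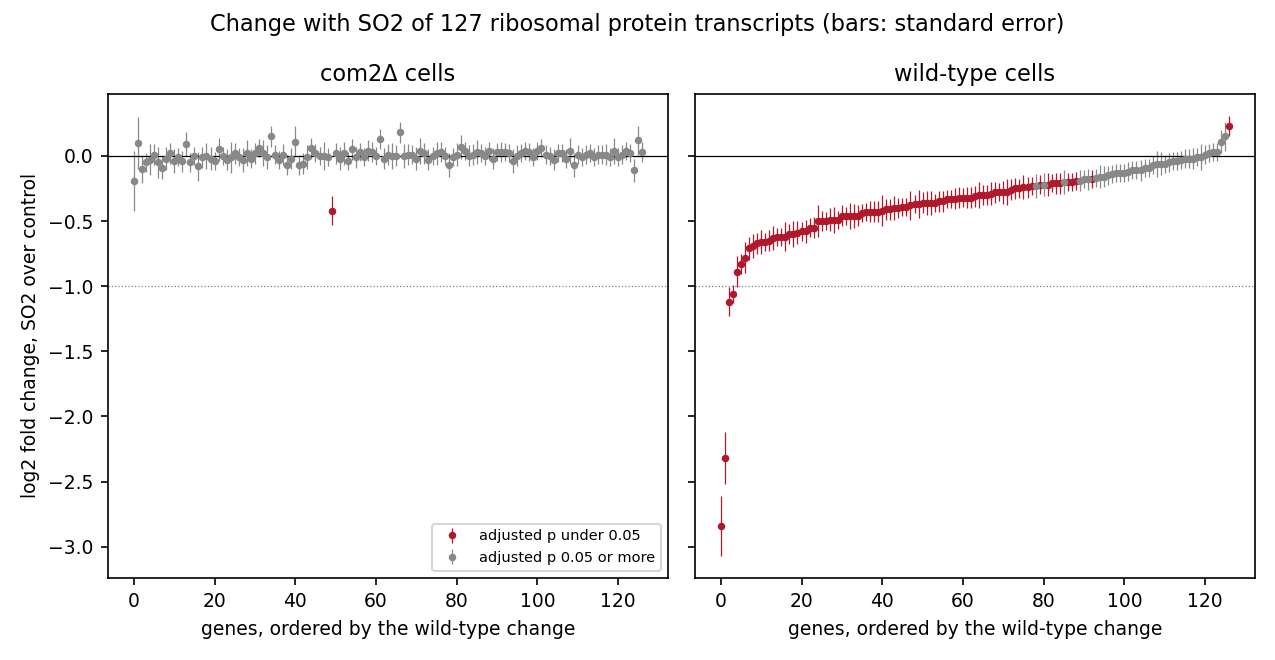
Log2 fold change of SO2 over control for the 127 genes in *com2*Δ cells (left) and wild-type cells (right), ordered in both panels by the wild-type value, with standard errors; red points have an adjusted p under 0.05 and the dotted line marks a 2-fold drop. In wild-type cells 87 genes lie significantly below 0 and *RPL4A* above it, whereas in *com2*Δ cells *RPS28B* is the only coloured point.

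Without SO2, no difference between the 2 strains was detected in these genes by the fit with equal weights. None of the 127 differed between *com2*Δ and wild-type control cells by the 2-fold rule or by adjusted p, and none had an unadjusted p under 0.05 in limma, while the fit with array weights called 7 higher and 2 lower. Over all features, 0.706% passed the 2-fold rule and 1.16% had an adjusted p under 0.05. The median log2 difference was 0.00, and 122 of the 127 genes lay within 0.1 of 0. The largest were 0.23 ± 0.20 (SE) for *RPS9A* and 0.17 ± 0.08 for *RPS7B*, and neither passed the test. *RPS7B* read 14067, 13788 and 14950 in *com2*Δ control cells and 12220, 12350 and 13441 in wild-type control cells, without overlap. The control arrays of the strains did not overlap in 14 genes that were higher in the mutant and 5 that were lower. Over all 5667 features these counts were 419 and 574. The standard errors are pooled over all groups and may be too large for this comparison.

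With SO2, 92 of the 127 transcripts were higher in the mutant than in the wild type and 2 were lower, *RPL3* and *RPL4A* (adjusted p under 0.05). Over all features, 29.9% were higher and 32.4% lower. By the 2-fold rule 4 of the 127 were higher and none was lower, beside 7.62% and 10% of all features. The difference between the responses of the strains was tested as an interaction, the log2 response to SO2 of *com2*Δ cells minus that of wild-type cells. It was above 0 in 66 of the 127 genes (52.0%) and below 0 in none by adjusted p, beside 21.8% and 23.1% of all features, and 4 genes passed the 2-fold rule upwards and none downwards, beside 8.17% and 9.30%. All 66 were among the 87 that fell in wild-type cells. The remaining 21 of those 87 passed the test in wild-type cells, but their difference between the strains did not.

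The 4 genes called by the 2-fold rule carry the largest changes. *RPS22B* (YLR367W), 1 of the 2 genes of small-subunit protein Rps22, read 11639, 11053 and 12622 in *com2*Δ cells with SO2 and 12779, 13508 and 13946 in *com2*Δ control cells. It read 1969, 2830 and 1229 in wild-type cells with SO2 and 14215, 14361 and 12340 in wild-type control cells. The wild-type arrays with SO2 were far below all others. The *com2*Δ arrays with SO2 also lay below the *com2*Δ control arrays without overlap, but by far less. In *com2*Δ cells the log2 fold change was −0.19 ± 0.23 (SE). In wild-type cells the transcript was 7.16-fold lower with SO2 (log2 fold change −2.84 ± 0.23, adjusted p = 1.83e-06 in limma), and the responses differed by 2.65 ± 0.32 (adjusted p = 0.000125 in limma).

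*RPS9A* (YPL081W) encodes small-subunit protein Rps9, which binds early to the ribosomal RNA and bears on the accuracy of decoding. Its intensities were 8444, 9100 and 8735 in *com2*Δ cells with SO2 and 8599, 7861 and 8140 in *com2*Δ control cells. In wild-type cells they were 1893, 1540 and 935 with SO2 and 6739, 6340 and 7912 in the control. The groups of the wild type did not overlap, and the arrays with SO2 also lay below every *com2*Δ array. The log2 fold change in the mutant was 0.10 ± 0.20, while the drop in wild-type cells was 4.99-fold (−2.32 ± 0.20, adjusted p = 3.6e-06 in limma). The responses differed by 2.41 ± 0.29 (adjusted p = 0.000113 in limma).

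*RPS14B* (YJL191W) encodes small-subunit protein Rps14, which in yeast binds the *RPS14B* transcript and represses it. It read 8085, 8321 and 8676 in *com2*Δ cells with SO2 and 8841, 8733 and 9240 in *com2*Δ control cells. It read 3999, 4172 and 3097 in wild-type cells with SO2 and 7953, 7896 and 8531 in wild-type control cells. Here too the wild-type arrays with SO2 were far below all others. The *com2*Δ arrays with SO2 lay just below the *com2*Δ control arrays, without overlap. On the log2 scale it changed by −0.10 ± 0.11 in *com2*Δ and by −1.12 ± 0.11 in wild-type cells, and these responses differed by 1.03 ± 0.16 (adjusted p = 0.000476 in limma). Without the third wild-type array with SO2, its wild-type change was −0.99, just short of 2-fold.

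*RPL9A* (YGL147C), a gene of large-subunit protein Rpl9, read 16621, 16832 and 16474 in *com2*Δ cells with SO2 and 17041, 17160 and 17419 in *com2*Δ control cells. It read 8076, 8704 and 7827 in wild-type cells with SO2 and 17153, 17154 and 16807 in wild-type control cells. The spread within each group was small beside the gap in wild-type cells. The *com2*Δ arrays with SO2 lay slightly below the *com2*Δ control arrays, again without overlap. The log2 fold change was −0.05 ± 0.07 in *com2*Δ cells and −1.06 ± 0.07 in wild-type cells (adjusted p = 8.21e-07 in limma), and the responses differed by 1.01 ± 0.11 (adjusted p = 5.35e-05 in limma). Without the third wild-type array with SO2 that difference was 0.97, and it also missed the limit of the 2-fold rule, by a narrow margin, without the first wild-type or the second *com2*Δ array with SO2.

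**Figure D3:**
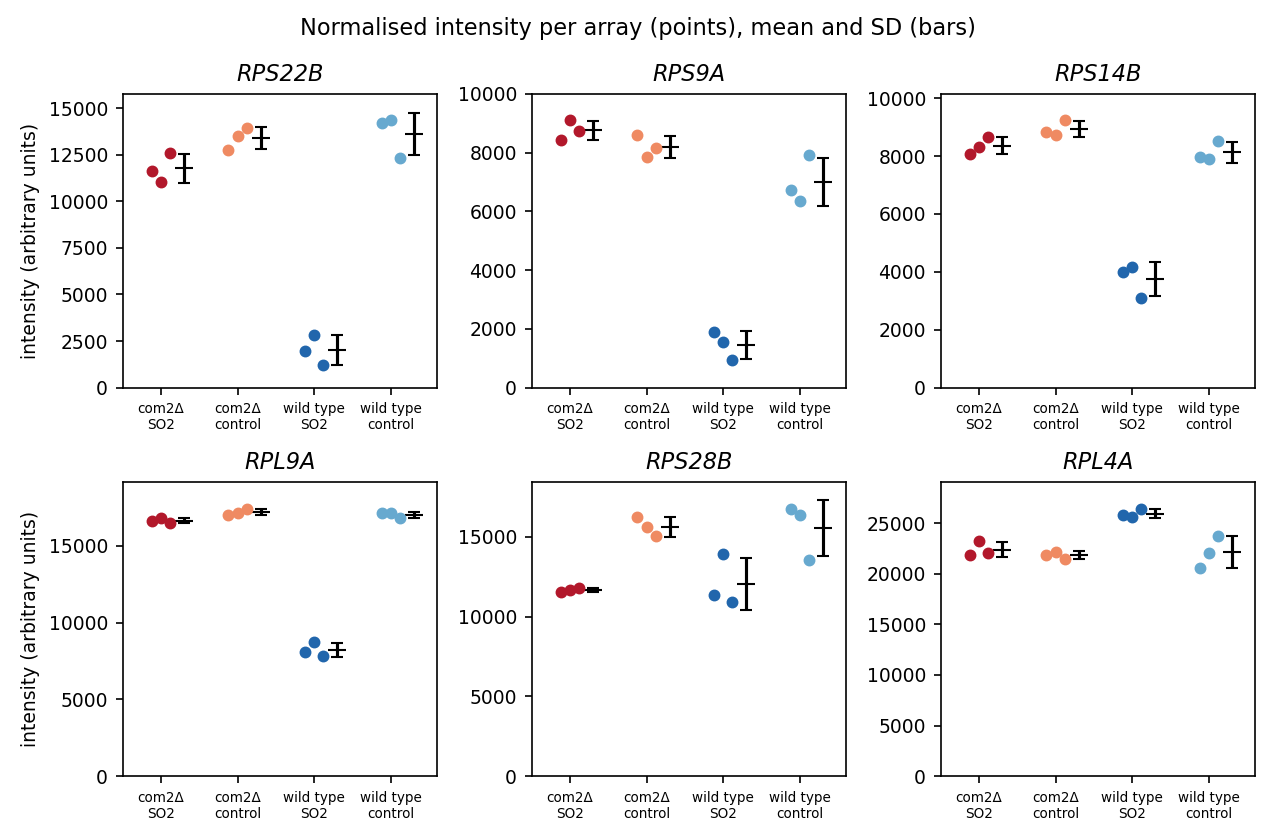
Intensity on each of the 12 arrays for 6 ribosomal protein genes, with 3 points per group and their mean and SD as a bar to the right, on linear axes that start at 0. *RPS22B*, *RPS9A*, *RPS14B* and *RPL9A* are far lower on the wild-type arrays with SO2 than on all others. *RPS28B* is low with SO2 in both strains, and *RPL4A* is highest in wild-type cells with SO2.

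Next in size were *RPL13A*, *RPL19A*, *RPL9B*, *RPL6B* and *RPS10B*, which fell in wild-type cells with log2 fold changes of −0.89, −0.83, −0.78, −0.71 and −0.69 (standard errors 0.08 to 0.12). *RPL13A* read 14043, 14780 and 14494 in *com2*Δ cells with SO2 and 14407, 14136 and 15636 in *com2*Δ control cells, against 8971, 6225 and 8047 in wild-type cells with SO2 and 13431, 13971 and 15294 in wild-type control cells. It was again the wild-type cells with SO2 alone that were low, and the responses of the strains differed by 0.86 ± 0.18. Among the genes with a single copy, *RPL29* and *RPL38*, both of the large subunit, fell the most, by −0.66 and −0.59 (adjusted p = 5.58e-05 and 0.000145 in limma).

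*RPS28B* (YLR264W) was the exception among the 127 genes, with a drop that passed the test in both strains. In yeast, the Rps28 protein binds a hairpin in the *RPS28B* mRNA and speeds its decay by decapping. The gene read 11524, 11649 and 11811 in *com2*Δ cells with SO2 and 16243, 15622 and 15024 in *com2*Δ control cells. In wild-type cells it read 11326, 13935 and 10887 with SO2 and 16764, 16346 and 13553 in the control. The *com2*Δ groups did not overlap, while the second wild-type array with SO2 read above the third array of the wild-type control. The log2 fold changes were −0.42 ± 0.11 in *com2*Δ cells (adjusted p = 0.0167 in limma) and −0.37 ± 0.11 in wild-type cells (adjusted p = 0.0147 in limma), and their difference was −0.05 ± 0.16 (adjusted p = 0.812 in limma). Both calls were lost when certain single arrays were left out. Without the first *com2*Δ array with SO2, or the first or second *com2*Δ control array, the adjusted p in *com2*Δ cells was 0.0553, 0.0584 and 0.0531 in limma, at log2 fold changes of −0.41, −0.39 and −0.42. Without the first or the third wild-type array with SO2, or the first or the second wild-type control array, the adjusted p in wild-type cells was 0.0556, 0.0628, 0.0601 and 0.0565 in limma, at −0.33, −0.30, −0.31 and −0.33. Its paralog *RPS28A* was at 0.00 ± 0.10 in *com2*Δ cells and fell in wild-type cells (−0.60 ± 0.10).

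*RPL4A* (YBR031W) was the one gene that rose. Rpl4 reaches with a long loop into the core of the large subunit and has a chaperone of its own, Acl4. *RPL4A* read 21891, 23219 and 22028 in *com2*Δ cells with SO2 and 21845, 22206 and 21471 in *com2*Δ control cells. It read 25777, 25609 and 26437 in wild-type cells with SO2 and 20606, 22107 and 23725 in wild-type control cells. All wild-type arrays with SO2 were above all other arrays. The log2 fold change in wild-type cells was 0.23 ± 0.08 (adjusted p = 0.0269 in limma), but it was 0.13 and 0.14 after median centring and quantile normalization (adjusted p = 0.17 and 0.154 in limma), so the call depends on the scaling. Without the first wild-type control array it was 0.18 (adjusted p = 0.114 in limma). The difference of the responses of *RPL4A* between the strains was −0.20 and did not pass the test. *RPL4B* was at 0.12 ± 0.11 in the mutant and 0.15 ± 0.11 in the wild type, and passed the test in neither.

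*RPL3* (YOR063W), whose protein lies next to the site of peptide bond formation, read 18540, 19213 and 17800 in *com2*Δ cells with SO2, against 22898, 21606 and 23090 in wild-type cells with SO2. It was lower in the mutant (log2 difference −0.28 ± 0.09, adjusted p = 0.0136 in limma), the opposite of most other genes. Its log2 fold changes with SO2 were −0.11 ± 0.09 in *com2*Δ cells and 0.11 ± 0.09 in wild-type cells, and neither passed the test. The difference of these responses, −0.21 ± 0.12, did not pass it either (adjusted p = 0.174 in limma). After median centring the difference between the strains with SO2 was −0.20 (adjusted p = 0.0577 in limma). Without the third *com2*Δ array with SO2 it was −0.25 (adjusted p = 0.0535 in limma).

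Proteins with particular places or tasks on the ribosome were looked at as small groups. The stalk of the large subunit, which recruits the elongation factors, is built from Rpp0 and 4 small acidic proteins. Of its 5 genes, 2 fell in wild-type cells with SO2, beside 29.6% of all features. They were *RPP1B* (−0.38 ± 0.11) and *RPP2A* (−0.28 ± 0.10). *RPP0*, *RPP2B* and *RPP1A* had values of −0.01 ± 0.07, −0.04 ± 0.07 and −0.11 ± 0.08 and did not pass the test. The drop of *RPP1B* and *RPP2A* was uneven among replicates. *RPP1B* read 13796, 18885 and 14764 in wild-type cells with SO2, against 20145, 20539 and 20506 in wild-type control cells. *RPP2A* read 14751, 19362 and 15377 with SO2, against 19822, 19959 and 20028 in the control, so that for both genes the second array with SO2 was much closer to the control than the others. Without the first wild-type array with SO2, *RPP2A* was at −0.21 (adjusted p = 0.134 in limma). No stalk gene passed the test for the difference between the strains' responses.

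*RPL40A*, *RPL40B* and *RPS31* encode ribosomal proteins that are made as fusions to ubiquitin and then cut free. Of these 3 genes, *RPL40B* alone fell in wild-type cells (−0.50 ± 0.08, adjusted p = 0.000236 in limma), beside 29.6% of all features. *RPL40A* and *RPS31* had values of −0.02 ± 0.07 and −0.07 ± 0.07 and did not pass the test. Of the other genes looked at for their roles, *RPL5*, which carries a small ribosomal RNA into the large subunit, *RPL10*, which joins it last, and *RPL30*, whose protein blocks the splicing of its own transcript, had values of −0.01 ± 0.10, 0.02 ± 0.07 and −0.03 ± 0.07. *RPS3*, at the entry of the mRNA channel, was at −0.17 ± 0.07 (adjusted p = 0.0574 in limma).

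Paralogs often differed in how far they fell. Both copies were measured for 50 pairs. In wild-type cells both fell in 30 pairs, 1 in 18 pairs and none in 2 pairs, *RPS27* and *RPL4*. Of all features, taken singly, 29.6% fell. The median absolute difference between the log2 fold changes of the copies was 0.04 in the mutant and 0.24 in the wild type. Short probes can hybridize to both copies of a pair where their sequences are nearly the same, and the arrays mark such probe sets. Of the 127 probe sets used, 28 carry this mark, as a set shared by several transcripts (22) or as one open to cross-hybridization (6). In the 33 pairs without marked probe sets, both copies fell in 26 pairs, 1 in 6 and none in 1, and the median absolute difference was 0.23. In the 17 pairs with at least 1 marked probe set, both fell in 4, 1 in 12 and none in 1, and the median was 0.30. In these 12 pairs, the copy that did not fall also had a second, unmarked probe set. That set did fall for *RPS17B* (−0.72), *RPS8A* (−0.67), *RPS11B* (−0.66), *RPL14B* (−0.50), *RPS18B*, *RPL20B*, *RPS29B* and *RPS23A*. It did not pass the test for *RPS16A*, *RPS19B*, *RPL2A* and *RPL11B*. The count of pairs with 1 copy that fell thus depends on the probe set.

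The largest gap was in *RPS22*, where the log2 fold change in wild-type cells was −0.46 for *RPS22A* and −2.84 for *RPS22B*. *RPS22A* read 18773, 17947 and 19105 in *com2*Δ cells with SO2 and 18435, 18223 and 18311 in *com2*Δ control cells, against 13422, 15521 and 12040 in wild-type cells with SO2 and 19153, 18627 and 18170 in wild-type control cells. The wild-type arrays with SO2 did not overlap with the control, but were far closer to it than those of *RPS22B*. *RPS9A* and *RPS9B* followed, at −2.32 ± 0.20 and −0.67 ± 0.08. In *RPS14* the other copy, *RPS14A*, was at −0.09 ± 0.07 and did not pass the test, beside −1.12 ± 0.11 for *RPS14B*. None of these 6 probe sets is marked as shared.

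Of the other pairs among the 10 with the widest gaps, *RPL40* and *RPL43* had a B copy that fell (−0.50 and −0.62) and an A copy that did not pass the test (−0.02 and −0.14). *RPS23* showed the same order, with *RPS23B* at −0.55 and *RPS23A*, whose probe set is marked as shared, at 0.03. The second, unmarked probe set of *RPS23A* was at −0.21 ± 0.08 (adjusted p = 0.0491 in limma). In *RPS1*, *RPL23* and *RPL13* both copies fell, A more than B. *RPS1A* and *RPS1B* were at −0.66 and −0.18, *RPL23A* and *RPL23B* at −0.62 and −0.21, and *RPL13A* and *RPL13B* at −0.89 and −0.49. The call of *RPS1B* (adjusted p = 0.0487 in limma) was lost without any 1 of the 12 arrays, with adjusted p-values of 0.0531 to 0.123 in limma. That of *RPL23B* (adjusted p = 0.0411 in limma) was lost without 8 of them in turn, with values of up to 0.147. *RPS28* was included for its gap in *com2*Δ cells, 0.42. No copy was favoured as such, since the A copy fell further in some of these pairs and the B copy in others. The differences between copies were not tested and are given as a description. In wild-type control cells, the copy that fell more was the dimmer one in *RPS22*, *RPS9*, *RPS14*, *RPS23*, *RPL40* and *RPL13*. The mean intensity was 6997 for *RPS9A* and 18410 for *RPS9B*, and 8127 for *RPS14B* and 21470 for *RPS14A*. In *RPS28* it was the brighter one. *RPL43*, *RPS1* and *RPL23* were not compared in this way. The part of brightness in these gaps was not tested.

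**Figure D4:**
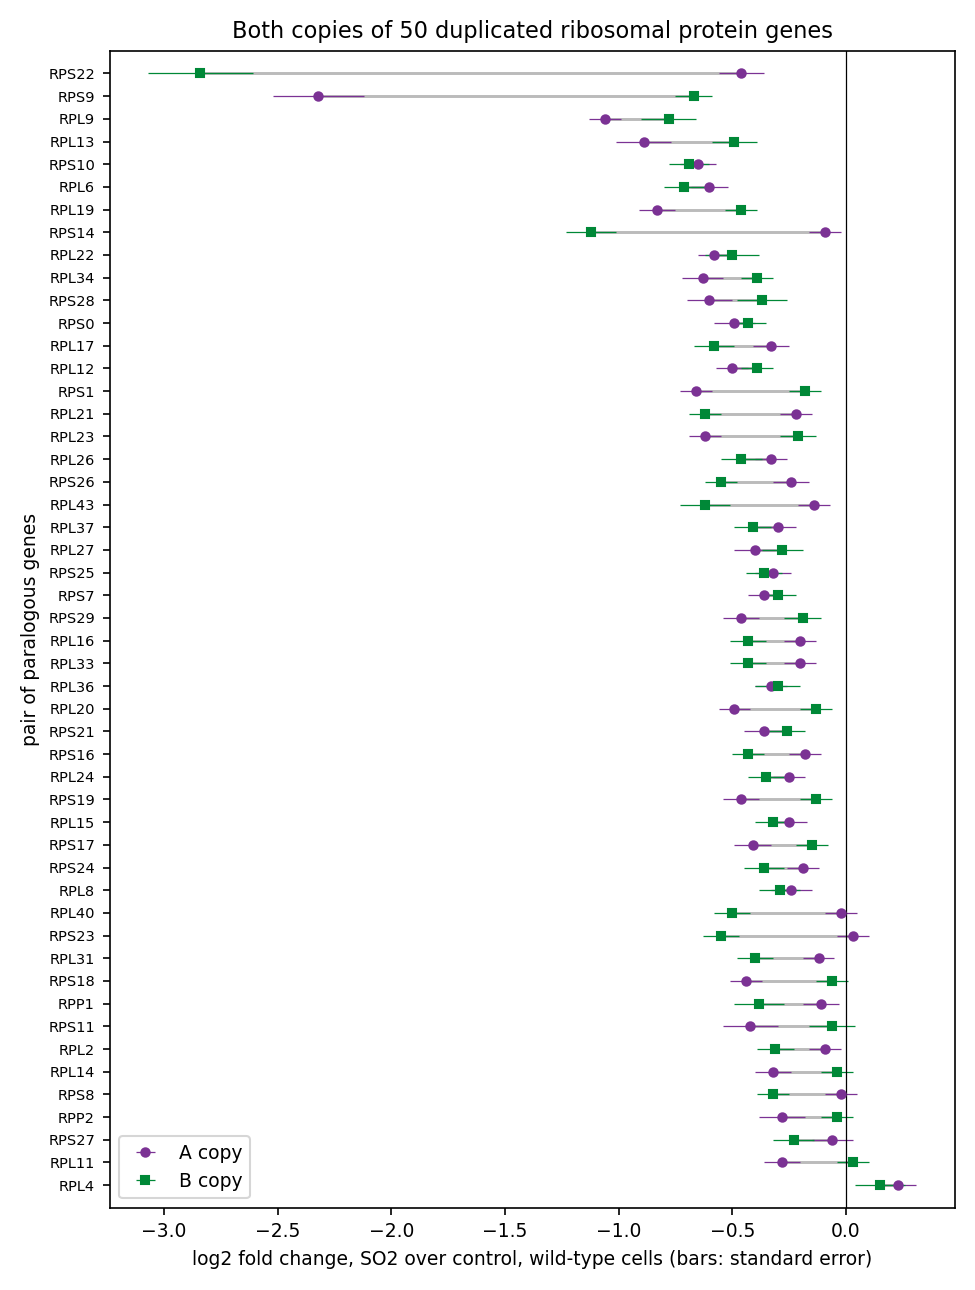
Log2 fold change of SO2 over control in wild-type cells for both copies of 50 duplicated ribosomal protein genes, with the A copy as a circle, the B copy as a square, standard errors as thin bars and a grey line between the copies; pairs are ordered by their mean. The copies of *RPS22*, *RPS9* and *RPS14* lie farthest apart, and most other pairs lie between −0.9 and 0.

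Genes were also counted by the number of their copies, as a description, and the difference between these classes was not tested. Of the 18 single genes 6 fell in wild-type cells, a share close to the 29.6% of all features, with a median log2 fold change of −0.15, and of the 100 genes with both copies measured 78 fell, with a median of −0.36. For the 9 genes of which only 1 copy is named on the array, 3 fell and the median was −0.16. These classes also differed in how bright their probe sets were, with a median of the mean intensities of 22244 for single genes, 17824 for paired genes and 21776 for genes with 1 named copy. The part of brightness in these values was not tested.

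Brightness moved with the size of the change. The mean intensities of the 127 probe sets ran from 4645 to 25590, with a median of 18460, near the top of the range of these arrays, where the highest single reading was 30580. Across the 127 genes, which are not independent replicates and share the same 12 arrays, the log2 fold change in wild-type cells correlated with the mean log2 intensity of the probe set (Pearson's r = 0.68, Spearman's rho = 0.74). That mean includes the wild-type arrays with SO2, so a gene that fell is dimmer by the change itself. With brightness taken from the 6 *com2*Δ arrays alone, which do not enter the change, r was 0.53 and rho 0.64. By those arrays, the median change in wild-type cells was −0.50 for the dimmest 32 genes and −0.09 for the brightest 32. The standard deviation of the changes also fell with brightness in the other features of the arrays, with 0.76 between 8000 and 12000 units and 0.21 above 20000. In 66 other features above 16000 the median change was 0.15, beside −0.23 in the 94 ribosomal protein genes at that brightness.

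A gene measured by more than 1 probe set gave a direct comparison. In 20 genes a second, dimmer probe set was present. It showed the more negative change in wild-type cells in 17 of them, the less negative in 2 and the same, after rounding, in 1. The median was −0.16 for the brighter and −0.30 for the dimmer probe sets, and 8 of the brighter against 16 of the dimmer fell (adjusted p under 0.05). Of all features, 29.6% fell in the fit with the brighter probe sets. The brighter probe set was marked as shared or open to cross-hybridization in 19 of the 20. The widest gap was in *RPL18B*, where the brighter probe set, marked as shared, gave −0.28 ± 0.07 and the dimmer, unmarked one −1.99 ± 0.20. In *com2*Δ cells no dimmer probe set changed by more than 0.10. The sizes given for the bright genes, and the count of 4 genes past 2-fold, thus depend on the probe set. With the dimmest probe set of each gene, 94 of the 127 genes fell and 5 passed the 2-fold rule.

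**Figure D5:**
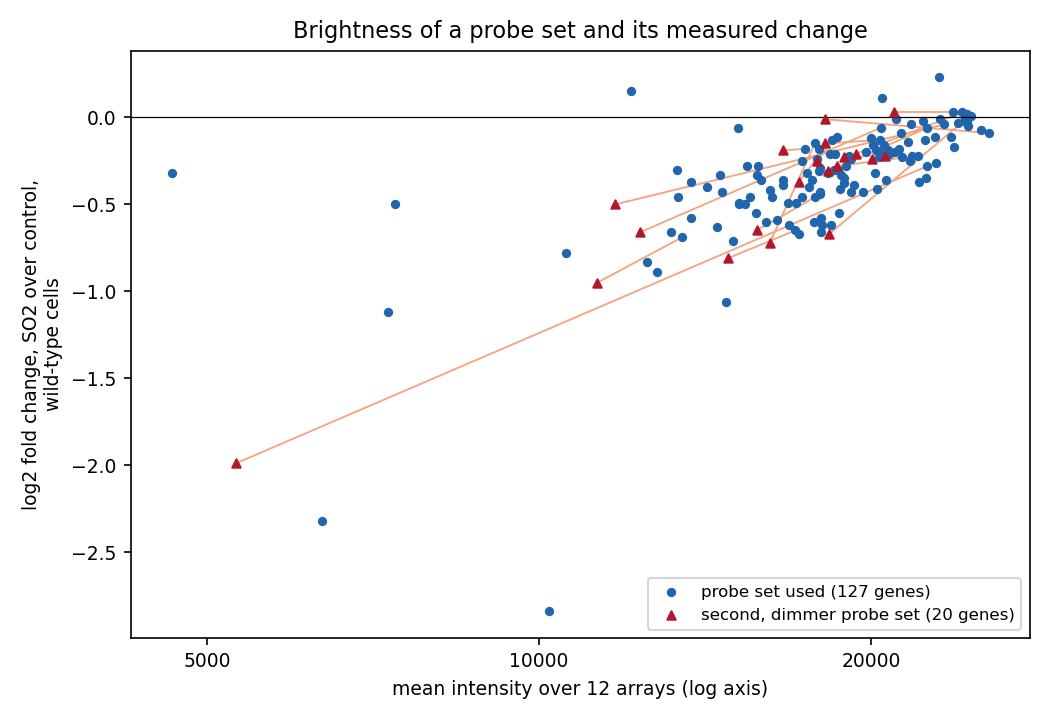
Mean intensity over 12 arrays (log axis) against the log2 fold change of SO2 over control in wild-type cells, for the probe sets used (circles, 127 genes) and for the second, dimmer probe sets of 20 of these genes (triangles, joined to the circle of the same gene). Bright probe sets lie near 0 and dimmer ones lower, and the dimmer probe set of *RPL18B* lies at −1.99.

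Proteins that work on the ribosome without belonging to it were also measured. Of 8 genes of ribosome-bound proteins, none passed the test in *com2*Δ cells and 6 fell in wild-type cells with SO2 (median 0.01 in the mutant and −0.48 in the wild type), beside 29.6% of all features that fell in wild-type cells. The responses of the strains differed in 5, all upwards, beside 21.8% of all features. *ASC1*, the yeast RACK1 on the head of the small subunit, read 22003, 22410 and 22329 in *com2*Δ cells with SO2 and 22617, 22763 and 22515 in *com2*Δ control cells. It read 15357, 19315 and 14725 in wild-type cells with SO2 and 22762, 23195 and 22612 in wild-type control cells. The difference of its responses, 0.46 ± 0.14 (adjusted p = 0.0225 in limma), had adjusted p-values of 0.0503 to 0.0568 in limma without any 1 of 3 wild-type arrays. As with the stalk genes above, the second wild-type array with SO2 was the nearest to the control. *STM1*, which clamps idle ribosomes (−0.66 ± 0.12), *EGD1* and *EGD2*, the nascent polypeptide-associated complex (−0.55 ± 0.08 and −0.48 ± 0.10), and *SSZ1* (−0.77 ± 0.09), a chaperone at the tunnel exit, fell as well. Its partner *ZUO1* was at −0.39 ± 0.15 (adjusted p = 0.0387 in limma), and at −0.24 without the third wild-type control array or −0.26 without the second wild-type array with SO2, where it did not pass the test. The chaperones *SSB1* and *SSB2* had values of 0.04 ± 0.08 and −0.11 ± 0.08.

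Of 7 dedicated chaperones of ribosomal proteins, 1 fell and 1 rose in wild-type cells, beside 29.6% and 30.0% of all features. *ACL4* fell (−0.59 ± 0.12), while *RPL4A*, the gene of its client, rose as described. *BCP1*, the chaperone of Rpl23, rose (0.45 ± 0.12). *YAR1*, the chaperone of Rps3, was the only one of the 7 to rise in *com2*Δ cells (0.38 ± 0.09, adjusted p = 0.00814 in limma), beside 14.0% of all features. The other 4, *RRB1*, *SQT1*, *SYO1* and *TSR2*, passed the test in neither strain, with values of −0.25 to 0.14 in wild-type cells.

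Of 9 transcription regulators that act at ribosomal protein promoters, none passed the test in *com2*Δ cells (median 0.19), and in wild-type cells 5 rose and none fell (median 0.39), beside 30.0% and 29.6% of all features. *CRF1*, a corepressor that takes the place of Ifh1 on Fhl1, rose the most among them and read 135, 87.1 and 121 in *com2*Δ cells with SO2 and 85.6, 108 and 95 in *com2*Δ control cells, against 244, 280 and 283 in wild-type cells with SO2 and 133, 157 and 109 in wild-type control cells. Its log2 fold change in wild-type cells was 1.03 ± 0.18. The activators *SFP1* (0.43 ± 0.10), *RAP1* (0.41 ± 0.13) and *FHL1* (0.39 ± 0.14) rose too. The adjusted p of *RAP1* (0.017 in limma) became 0.0625 without the first wild-type control array, 0.0568 without the second and 0.0577 without the first wild-type array with SO2. That of *FHL1* (0.0357 in limma) became 0.116 without the second wild-type array with SO2, and its call was also lost without 3 other arrays in turn. *HMO1*, at 0.67 ± 0.26 (adjusted p = 0.0452 in limma), rests on uneven control arrays of 3063, 3313 and 6568, and was at 1.02 without the third and at 0.47 without the first, where it did not pass the test (adjusted p = 0.17 in limma). *IFH1*, the coactivator, was at 0.22 ± 0.18 and did not pass the test.

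Of 8 genes of the growth signalling kinases, 1 rose and 3 fell in the mutant with SO2, beside 14.0% and 14.9% of all features. In wild-type cells 4 rose and 2 fell, beside 30.0% and 29.6%. The 3 genes of the TOR complexes on this list went opposite ways in the 2 strains. Other genes of these complexes were not looked at. *TOR1* read 775, 1171 and 1020 in *com2*Δ cells with SO2 and 1788, 1799 and 1432 in *com2*Δ control cells, against 2929, 3247 and 3193 in wild-type cells with SO2 and 1698, 1867 and 1676 in wild-type control cells. The 2 control groups overlapped, the wild-type arrays with SO2 were the highest and the *com2*Δ arrays with SO2 the lowest. The log2 fold changes were −0.77 ± 0.15 in *com2*Δ cells and 0.84 ± 0.15 in wild-type cells. *KOG1* was at −0.49 ± 0.13 in the mutant and 0.73 ± 0.13 in the wild type, and *TOR2* at −0.47 ± 0.15 in the mutant and 0.53 ± 0.15 in the wild type. In *com2*Δ cells, the calls of *KOG1* and *TOR2* were lost when certain single arrays were left out (adjusted p = 0.0715 and 0.143 in limma without the first *com2*Δ array with SO2). The kinase gene *SCH9*, downstream of TORC1, rose in wild-type cells (1.04 ± 0.32), from control arrays of 736, 850 and 1948, and lost its call without the first of these (0.77, adjusted p = 0.0631 in limma). *BCY1*, the inhibitory subunit of protein kinase A, and *TPK2*, a catalytic one, fell in wild-type cells (−1.14 ± 0.20 and −0.78 ± 0.16), whereas the catalytic subunit gene *TPK3* rose in *com2*Δ cells (0.37 ± 0.10, adjusted p = 0.0198 in limma). This last call was lost without any 1 of 4 *com2*Δ arrays (adjusted p = 0.0526 to 0.0745 in limma).

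The features most like the ribosomal protein genes were sought by the correlation of their log2 intensities over the 12 arrays with the median of the 127 genes on each array. The 5 highest were *PEX19* (Pearson's r = 0.993), *TAT1* (0.99), *RTN1* (0.988), *FIS1* (0.987) and *ARR3* (0.986), none of which encodes a part of the ribosome. *TAT1*, an amino acid permease, changed by 0.08 on the log2 scale in the mutant and by −3.66 in the wild type, and *PEX19*, needed for peroxisome formation, by 0.13 in the mutant and −1.49 in the wild type. These correlations rest on the gap between the wild-type arrays with SO2 and the other 9, and are given as a description.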

How the data were processed

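Total RNA was extracted with hot phenol, labelled and hybridized to Affymetrix Yeast Genome 2.0 arrays. The authors deposited linear intensities, with 1 value for each probe set on each array. According to the paper, arrays were normalized to an invariant set and expression indices were computed from perfect match probes in dChip; the submitters' processing notes name MAS5. The paper speaks of fewer arrays and of another labelling kit than the labels, which cover all 12 arrays. Of 5716 probe sets, 5498 name 1 gene, 0 several and 218 none, and 12 symbols were updated from RefSeq (R64). The brightest probe set per gene was kept, giving 5667 features.

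Log2 intensities were fitted with limma 3.58.1 (R 4.3.3) on all 12 arrays with 1 mean per group (8 residual and 3.24 prior degrees of freedom) and Benjamini-Hochberg adjustment over all features. The Present calls and lower-bound fold of the study's methods were not applied. Groups were taken from the sample titles. The p-values rest on the spread between cultures, pooled over all 4 groups and moderated over all features. The labels call these cultures biological replicates. Over the ribosomal protein genes, replicates differed by a median of 0.054 to 0.121 on the log2 scale in wild-type cells with SO2. In the other groups this was 0.017 to 0.052. The pooled standard errors may thus be too small for comparisons with wild-type cells with SO2, and too large for the others. Tables were made with Python 3.11.15, pandas 2.3.3, numpy 2.4.6 and scipy 1.17.1. Genes and gene lists were chosen with earlier results of these data known. Genes were chosen for naming as the 5 highest and 5 lowest members of each of 5 comparisons, and every member past 2-fold. The 10 pairs with the widest gaps, members with special roles and the genes of the other lists were added. Not all of these are printed. Left out are *RPL11B*, *RPL15B*, *RPL22B*, *RPL34A*, *RPS10A*, *RPS11A*, *RPS12*, *RPS19A*, *YAK1*, *ABF1*, *TBF1* and *REB1*. *RPL19A*, *RPL9B*, *RPS10B*, *RPL29*, *RPL38*, *RPL18B* and *RPS27* were named after their values were seen. Alternatives were other scalings, fits, filters, thresholds, probe sets and leaving out each array.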

Additional observations from a re-analysis of the deposited data

Results flagged for a closer look

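The responses of the 2 strains to SO2 differed in 66 of the 127 ribosomal protein genes by adjusted p (limma), in each as a higher value in *com2*Δ cells than in wild-type cells. The log2 response of *com2*Δ cells minus that of wild-type cells was over 1 in *RPS22B* (2.65), *RPS9A* (2.41), *RPS14B* (1.03) and *RPL9A* (1.01). Among the other genes looked at, it was −1.61 for *TOR1* and −1.22 for *KOG1*, whose changes had opposite signs in the strains, and −1.12 for *HIS3*. For *COM2* it was 1.30, from readings of 9.4 to 20.3 in the mutant that lacks the gene. A signal outside the main measurement was that of the second probe set of *RPL18B*, which had a log2 fold change of −1.99 with SO2 in wild-type cells, beside −0.28 for the probe set used.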

How the results depend on the processing

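The arrays limit these results in several ways. Each group had 3 arrays, most ribosomal protein probe sets were near the top of the intensity range, and 28 of the 127 probe sets are marked as shared or open to cross-hybridization. The fit with array weights stopped before its estimates settled, with weights of 0.151 to 15, and its values are given for completeness. The alternatives to the counts by adjusted p were chosen after seeing the data.

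Median centring and quantile normalization gave a median change in wild-type cells of −0.40 and −0.43 in place of −0.31. It was −0.34 with array weights, −0.33 with the dimmest probe sets and −0.36 with plain probe sets. Median centring moved the median of all features to −0.10 in wild-type cells. The count of genes that fell was 67 to 107 over the alternatives. It was 87 with no fold limit and 20 at 1.5-fold, beside 4 at 2-fold. The gene that rose, 1 with no fold limit, became 2 with array weights and 0 with median centring, the 6 arrays compared or quantile normalization, and 0 to 1 when single arrays were left out.

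In *com2*Δ cells the median of 0.00 became 0.03 with array weights, −0.02 with median centring and −0.03 with quantile normalization. With array weights 31 genes were higher and 5 lower; with no fold limit 1 was lower, and 0 to 1 when single arrays were left out. Without SO2 the strains differed in 7 genes upwards and 2 downwards with array weights, and the median was 0.01 with median centring or quantile normalization.

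With SO2, 92 genes were higher in *com2*Δ cells with no fold limit and 22 at 1.5-fold. The count of lower genes, 2 with no fold limit, was 0 with median centring, 1 with the 6 arrays compared, quantile normalization or the replicate block, and 0 to 2 when single arrays were left out. The median of 0.32 became 0.35 with array weights or the dimmest probe sets, 0.41 with median centring or quantile normalization, 0.37 with plain probe sets and 0.30 to 0.33 without single arrays. The difference of responses was above 0 in 66 genes with no fold limit, 19 at 1.5-fold, 101 with array weights, and 2 to 4 at 2-fold without single arrays. It was below 0 in 2 genes with array weights and 1 with trend and robust variances. Its median of 0.32 became 0.37 with array weights, 0.39 with median centring or quantile normalization, 0.36 with plain probe sets and 0.30 to 0.34 without single arrays. The causes were not tested. None of the 44 ribosomal protein genes chosen for naming changed direction while called.

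The replicate numbers in the titles were not used as pairs in the main fit. Same-numbered arrays had correlations of −0.28 to 0.47 between their deviations from the group means, over 0.1 in 5 of 12 cases. With 3 arrays in a group, these values cannot decide whether the samples were paired. With the number as a replicate block, 79 genes fell in wild-type cells, 87 were higher in *com2*Δ cells with SO2, and the responses differed in 60.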
